A study of Mus musculus with 24 samples.

Results

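Genes of the Toll-like receptors, the NOD-like receptors and the C-type lectins were followed in the terminal ileum of conventional and germ-free mice given water or a β2→1-fructan. The genes were chosen by their symbols (Tlr and a number, Nod1 and Nod2, Nlr and further letters, Clec and a number and letter), and each was read from 1 probe set that carries no other symbol, and where a gene had several such sets, from that of highest mean. Of the 18820 genes tested, 66 were chosen in this way: 12 Toll-like receptors, 22 NOD-like receptors and 32 C-type lectins. No difference between groups entered this rule, though it was set with earlier results of these data known. It also took in genes whose proteins are not receptors, such as Clec3b, and the word receptor stands below for any of the 66 genes. The 3 probe sets that Nlrp4 genes share with each other were left out.

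All 24 mice were C57BL/6OlaHsd males of 8 weeks, kept on the same purified diet (D12450B). The 6 groups of 4 mice were conventional or germ-free and had received water, short-chain β2→1-fructan (oligofructose) or long-chain β2→1-fructan (inulin), 10 mg a day by gavage for 5 days. The conventional mice, free of specified pathogens, were bought from a supplier and the germ-free mice came from a university breeding colony, so that origin and colonization cannot be told apart. For the germ-free mice the short-chain fructan was sterilised by filtration and the long-chain fructan by irradiation, which degraded some of its longer chains. The preparation thus also went with colonization and, in germ-free mice, with the chain length of the fructan.

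Toll-like receptors are membrane proteins that bind parts of microbes, at the cell surface (lipoproteins, lipopolysaccharide, flagellin) or in endosomes (nucleic acids), and signal mostly through the adaptor MyD88 to NF-κB and interferon regulatory factors. NOD-like receptors lie in the cytosol. NOD1 and NOD2 sense fragments of bacterial cell wall, several NLRP proteins and NLRC4 assemble inflammasomes that activate caspase-1, and others such as NLRC3, NLRC5 and NLRX1 regulate gene expression or dampen signalling. C-type lectins include the pattern receptors of myeloid cells, such as dectin-1 (Clec7a), which binds β-glucan of fungi, and the CLEC2 proteins, which are ligands of the NKR-P1 receptors of natural killer cells and other lymphocytes. In the gut these genes are divided between epithelium, macrophages, dendritic cells and lymphocytes.

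Values are log2 expression from 1 array per mouse, and a difference of 1 is a factor of 2. The number of arrays limits their precision. The array medians lay between 4.92 and 4.98. The level below which 95% of the 979 olfactory receptor genes lay, 3.64, was taken as background. Above it were 37 of the 66 genes (56.1%, against 74.4% of all genes): 9 Toll-like receptors, 9 NOD-like receptors and 19 C-type lectins. The other 29 had a mean at or below it, among them Tlr6, Tlr7, Tlr11, Clec4e and 13 of the 16 Nlrp genes, with Nlrp3. As a mark of the tissue, the enterocyte genes had a mean level of 11.27 to 11.90 and the goblet cell genes of 12.22 to 12.44 over the mice. In germ-free mice on long-chain fructan, mice 3 and 4 had a mean level of 6 B cell genes of 4.40 and 4.60, against 3.40 to 3.73 in the other 10 germ-free mice and 3.79 to 4.04 in conventional mice, and results that rest on them are given without them as well. Pieces of whole ileum were measured, in which fewer cells of a type and less RNA per cell cannot be told apart.

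The first question was how the receptors differed between germ-free and conventional mice, averaged over the 3 treatments. Most of the differences that passed a test were lower levels in germ-free mice. A gene is named as called where its unadjusted p was under 0.01 and its fold over 1.3, the thresholds of the study, and beside these calls stands the count that passed 0.05 after Benjamini-Hochberg adjustment over all genes (limma). Of the 66 genes, 8 were called (12.1%, against 8.2% of all genes), namely Tlr1, Tlr12, Nlrc3, Clec2d, Clec2i, Clec7a and Clec9a, lower in germ-free mice (5.22% of all genes were called lower), and Clec2e, higher (2.99% of all genes were called higher). At an adjusted p under 0.05 there were 22 (33.3%, against 34.0% of all genes), so that the share that passed was near that of all genes. The direction was uneven: 21 of the 22 were lower in germ-free mice, where 15.4% of all genes were lower and 18.6% higher at this threshold. The median difference, germ-free minus conventional, was -0.07 over the 66 genes and 0.03 over all genes. Of the 22, 20 lay above background, and Tlr11 and Clec2g did not.

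**Figure D1:**
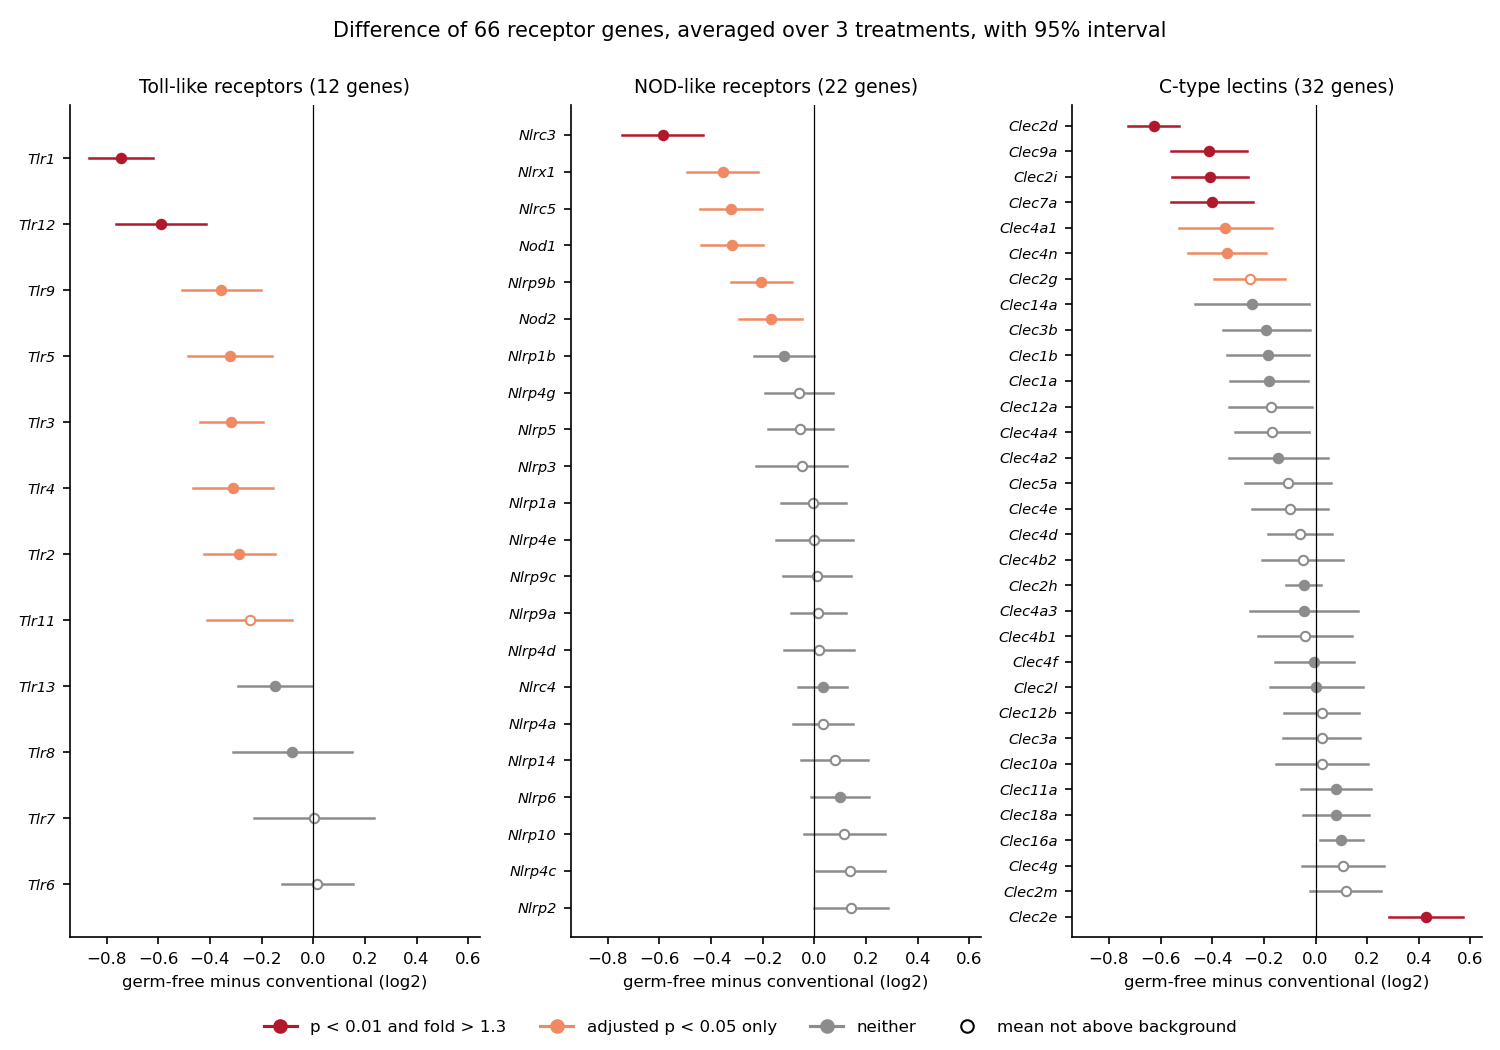
Difference between germ-free and conventional mice for each of the 66 genes (x axis, log2, averaged over 3 treatments, bar = 95% interval of the limma fit), by family, with open points for genes whose mean was not above background. The called genes lie to the left of 0, from -0.74 (Tlr1) to -0.40 (Clec7a), except Clec2e at 0.43, and most NOD-like receptors and C-type lectins lie near 0.

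Of the 12 Toll-like receptors, 8 were lower in germ-free mice at an adjusted p under 0.05 and none was higher, with a median difference of -0.30. At this threshold 15.4% of all genes were lower and 18.6% higher. Among the 5 of the cell surface, Tlr1 had the largest difference. TLR1 pairs with TLR2 to bind triacylated lipoproteins. Its level lay between 4.59 and 5.11 (median 4.89) in the 12 germ-free mice and between 5.42 and 5.86 (median 5.65) in the 12 conventional mice, with no overlap. This was a fold of 1.68 (log2 difference -0.74 ± 0.06 SE, limma adjusted p = 6.1e-10, two-sided exact permutation p within treatments = 5.8e-06, the smallest that 343000 permutations can give). Of the 66 genes, Tlr1 and Clec2d were separated in this way, 3.03%, against 3.75% of all genes.

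The other surface receptors above background differed less. Tlr2, the partner of TLR1, had a median of 4.62 in germ-free mice (4.44 to 4.97) and 5.07 in conventional mice (4.58 to 5.23), a fold of 1.22 (adjusted p = 0.0021). Tlr4, the receptor of lipopolysaccharide, had medians of 4.55 (4.02 to 5.01) and 4.87 (4.64 to 5.21), a fold of 1.24 (adjusted p = 0.0027). Tlr5, the receptor of flagellin, had medians of 6.10 (5.55 to 6.43) and 6.39 (5.90 to 6.73), a fold of 1.25 (adjusted p = 0.0031). In each of the 3 the ranges of the groups overlapped and the fold was under that asked of a call. Tlr6, whose protein is the other partner of TLR2 and a near relative of TLR1, was not above background and had a difference of 0.02 (adjusted p = 0.90), whose sign was negative under 6 of 31 alternative settings. Probes of such near relatives can bind each other's RNA, and this was not tested.

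The promoter of Tlr1 is shown because this gene had the largest difference of the 66 on the probe sets used (Nlrc5 had a larger one, -0.78, with its sets averaged) and because 1 of its annotated promoters held a sequence searched for. Sequences are from RefSeq (GRCm38.p6), 300 bases around a start, on the minus strand, and capitals mark GAGGAAGT, the letters searched for as a PU.1-type motif on both strands. PU.1 is a transcription factor of myeloid cells and B cells.

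Tlr1, chr5:64933509-64933808: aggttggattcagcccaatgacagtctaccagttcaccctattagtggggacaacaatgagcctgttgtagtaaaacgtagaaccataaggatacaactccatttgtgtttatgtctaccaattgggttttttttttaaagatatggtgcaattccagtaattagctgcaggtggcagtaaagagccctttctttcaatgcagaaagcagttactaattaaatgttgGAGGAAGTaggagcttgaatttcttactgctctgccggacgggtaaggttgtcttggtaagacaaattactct

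These letters began 23 bases before the start and were found in 3.2% of 32851 mouse promoters. They occurred in 6 of the 64 promoters of the 53 receptor genes searched, those of Tlr1, Tlr9, Tlr11, Nlrp1a, Nlrp1b and Nlrp4c. Of these genes, Nlrp1a, Nlrp1b and Nlrp4c did not pass in the averaged comparison (limma adjusted p = 0.97, 0.14 and 0.12). The letters were thus not confined to genes that were lower in germ-free mice. The second annotated promoter of Tlr1 did not hold these letters.

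Among the 7 endosomal Toll-like receptors, 4 were lower in germ-free mice at an adjusted p under 0.05. Tlr12, which with TLR11 binds profilin of apicomplexan parasites, had a level of 3.78 to 4.83 (median 4.20) in germ-free mice and 4.57 to 5.11 (median 4.87) in conventional mice, a fold of 1.51 (-0.59 ± 0.09, adjusted p = 6.7e-06). Of the germ-free mice, 1 on water reached the level of the conventional mice. Tlr9, the receptor of unmethylated CpG DNA, had medians of 5.06 (4.62 to 5.26) and 5.41 (5.00 to 5.52), a fold of 1.28 (adjusted p = 0.00068). Tlr3, which binds double-stranded RNA and is found in enterocytes, had medians of 6.80 (6.42 to 7.14) and 7.06 (6.87 to 7.31), a fold of 1.25 (adjusted p = 0.00019). Tlr11 was not above background, with medians of 3.48 (2.80 to 3.78) and 3.73 (3.59 to 3.84) and an adjusted p of 0.024, which became 0.056 without mice 3 and 4 of the germ-free long-chain group. The receptors of single-stranded RNA did not pass: the difference was -0.15 for Tlr13 (adjusted p = 0.13), -0.08 for Tlr8 (adjusted p = 0.64) and 0.00 for Tlr7 (adjusted p = 0.99), the last with a negative sign under 13 of 31 alternative settings.

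Of the 22 NOD-like receptors, 6 were lower in germ-free mice at an adjusted p under 0.05 and none was higher, and the median difference over the family was 0.00. Fewer thus passed, as a share, than the 34.0% of all genes (15.4% lower, 18.6% higher). Nlrc3, a brake on Toll-like receptor and T cell signalling, was the one called. It had a level of 3.41 to 3.94 (median 3.55) in germ-free mice and 3.89 to 4.55 (median 4.17) in conventional mice, a fold of 1.5 (-0.59 ± 0.08, adjusted p = 1.6e-06), and overlapped in the highest germ-free and lowest conventional mice. Most germ-free values lay below background. Nod1, the sensor of a peptidoglycan fragment of mainly Gram-negative bacteria, had medians of 5.27 (4.98 to 5.47) and 5.59 (5.35 to 5.79), a fold of 1.25 (adjusted p = 0.00018). Nod2, the sensor of muramyl dipeptide, had medians of 4.41 (4.27 to 4.71) and 4.58 (4.27 to 4.81) and a fold of 1.12 (adjusted p = 0.036). It no longer passed when any 1 of 13 mice was left out, with an adjusted p of 0.052 to 0.070 in limma. These were conventional water 1, 2 and 3, conventional short 1 and 3, conventional long 1 and 2, germ-free water 1 and 2, germ-free short 1 and 3 and germ-free long 3 and 4, and without both of the last the adjusted p was 0.13.

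Nlrc5, an activator of MHC class I genes, was measured by 19 probe sets. The one chosen for its mean level was 6.23 to 6.62 (median 6.40) in germ-free mice and 6.49 to 7.08 (median 6.70) in conventional mice, a fold of 1.25 (-0.32 ± 0.06, adjusted p = 0.00013), under the fold of a call. All 19 sets were lower in germ-free mice, by differences from -1.66 to -0.10 with a median of -0.67. With the mean of the sets in its place the difference was -0.78 (adjusted p = 1.9e-07) and the gene was called. The set chosen thus had 1 of the smaller differences.

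**Figure D2:**
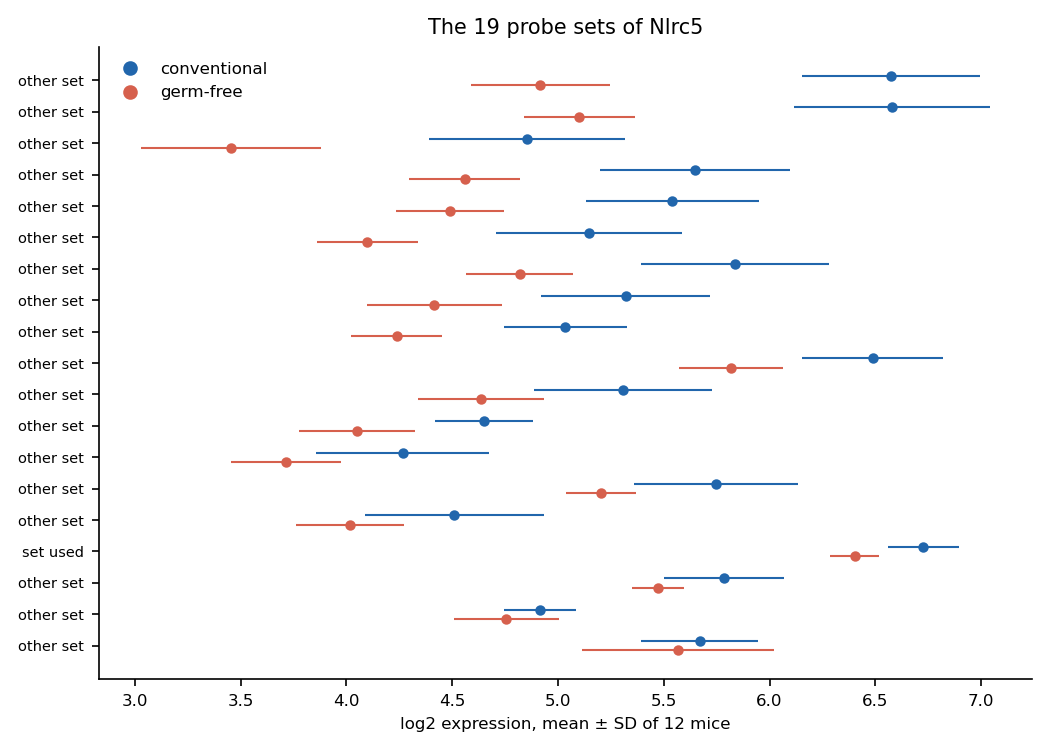
The 19 probe sets of Nlrc5, each with its log2 expression (x axis) as mean ± SD of 12 germ-free and 12 conventional mice, ordered by the difference. Every set was lower in germ-free mice, from -1.66 at the top to -0.10 at the bottom, and levels of different sets are not comparable.

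Nlrx1, a mitochondrial regulator of antiviral signalling, had medians of 5.55 (5.13 to 5.87) and 5.92 (5.85 to 6.25), a fold of 1.28 (adjusted p = 0.00021). Its second probe set went the other way, with a difference of 0.15, and with both averaged the difference was -0.10 (adjusted p = 0.27). Nlrp9b, which is expressed in enterocytes, had a fold of 1.15 (medians 8.06 and 8.24, adjusted p = 0.0090). Other receptors of the epithelium and of inflammasomes did not pass: Nlrp6 had means of 9.0 and 8.9 in germ-free and conventional mice (adjusted p = 0.20), Nlrc4 8.16 and 8.12 (adjusted p = 0.65), and Nlrp3, not above background, 3.19 and 3.24 (adjusted p = 0.72). The intervals of their differences were -0.01 to 0.21, -0.06 to 0.13 and -0.23 to 0.13. Of the 16 Nlrp genes as a group, Nlrp9b alone passed. The Nlrp4 genes, Nlrp5 and Nlrp14, which are known from oocytes, were not above background.

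Of the 32 C-type lectins, 7 were lower and 1 was higher in germ-free mice at an adjusted p under 0.05, with a median difference of -0.08. As a share, fewer passed here too than the 34.0% of all genes (15.4% lower, 18.6% higher). The 7 Clec2 genes differed in both directions. Clec2d, whose protein is the ligand of the inhibitory receptor NKR-P1B, had a level of 8.97 to 9.41 (median 9.20) in the 12 germ-free mice and 9.53 to 10.02 (median 9.84) in the 12 conventional mice, with no overlap. The fold was 1.54 (-0.63 ± 0.05, limma adjusted p = 2.0e-10, exact permutation p = 5.8e-06, again the smallest possible). Clec2e, its neighbour on chromosome 6, was higher in germ-free mice, at 9.60 to 10.19 (median 9.93) against 9.01 to 9.93 (median 9.48), a fold of 1.35 (0.43 ± 0.07, adjusted p = 4.6e-05). Clec2i, whose protein is a ligand of NKR-P1F, was lower, at 3.37 to 3.99 (median 3.67) against 3.91 to 4.51 (median 4.10), a fold of 1.33 (adjusted p = 9.6e-05). Clec2h, another gene of the same cluster with high level in the ileum, had means of 11.89 and 11.93 (adjusted p = 0.34, interval of the difference -0.11 to 0.02). Clec2g, not above background, was lower by a fold of 1.19 (adjusted p = 0.0054). The Clec2 genes are near relatives, and binding of RNA of one to probes of another was not tested.

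The promoters of Clec2d and Clec2e are set side by side because these neighbours differed in opposite directions. Both are from RefSeq (GRCm38.p6), Clec2d on the plus and Clec2e on the minus strand. Capitals mark an interferon response (IRF) motif, 2 copies of GAAA with 2 bases between them, searched for on both strands.

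Clec2d, chr6:129180365-129180664: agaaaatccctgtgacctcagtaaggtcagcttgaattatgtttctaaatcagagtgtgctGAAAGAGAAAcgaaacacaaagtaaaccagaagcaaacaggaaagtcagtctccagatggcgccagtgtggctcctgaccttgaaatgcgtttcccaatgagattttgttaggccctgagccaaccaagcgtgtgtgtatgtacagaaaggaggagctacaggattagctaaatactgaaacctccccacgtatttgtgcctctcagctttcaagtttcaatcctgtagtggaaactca

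Clec2e, chr6:129100854-129101153: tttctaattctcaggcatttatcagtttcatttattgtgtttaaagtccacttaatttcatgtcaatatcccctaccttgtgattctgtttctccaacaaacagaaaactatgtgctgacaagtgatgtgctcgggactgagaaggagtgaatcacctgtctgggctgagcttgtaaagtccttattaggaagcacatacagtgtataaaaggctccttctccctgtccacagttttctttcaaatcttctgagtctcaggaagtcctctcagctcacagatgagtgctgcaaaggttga

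The match in Clec2d began 189 bases before its start. These letters were in 3.44% of all promoters and in 6 of the 64 promoters of the receptor genes, those of Tlr6 and Tlr11 among them, and the window of Clec2e held none of the 4 motifs searched. No window printed here held more than 1 of the motifs. The other motifs were NF-κB, in the promoters of Tlr2, Tlr3, Nlrp3 and Clec2l and in 4.51% of all promoters, and CAAAGTCCA (HNF4-type), in that of Clec14a and in 0.475%.

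The lectins of myeloid cells were lower where they passed. Clec9a, the receptor of dendritic cells that cross-present antigen of dead cells, had a level of 3.26 to 4.10 (median 3.87) in germ-free mice and 3.94 to 4.58 (median 4.17) in conventional mice, a fold of 1.33 (adjusted p = 9.1e-05). Clec7a, dectin-1, had 4.79 to 5.55 (median 5.20) and 5.24 to 6.18 (median 5.55), a fold of 1.32 (adjusted p = 0.00030). Clec4n, dectin-2, had medians of 4.19 and 4.58, a fold of 1.27 (adjusted p = 0.00087). Clec4a1, of the family of dendritic cell immunoreceptors, had medians of 4.72 and 5.02, a fold of 1.27 (adjusted p = 0.0038). Its relatives Clec4a2, Clec4a3 and Clec4a4 and the other 6 Clec4 genes did not pass. The last genes of the family included Clec14a (-0.25), Clec3b (-0.19) and Clec1a (-0.18), with adjusted p of 0.097, 0.092 and 0.074, and Clec16a (0.10), with 0.066.

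**Figure D3:**
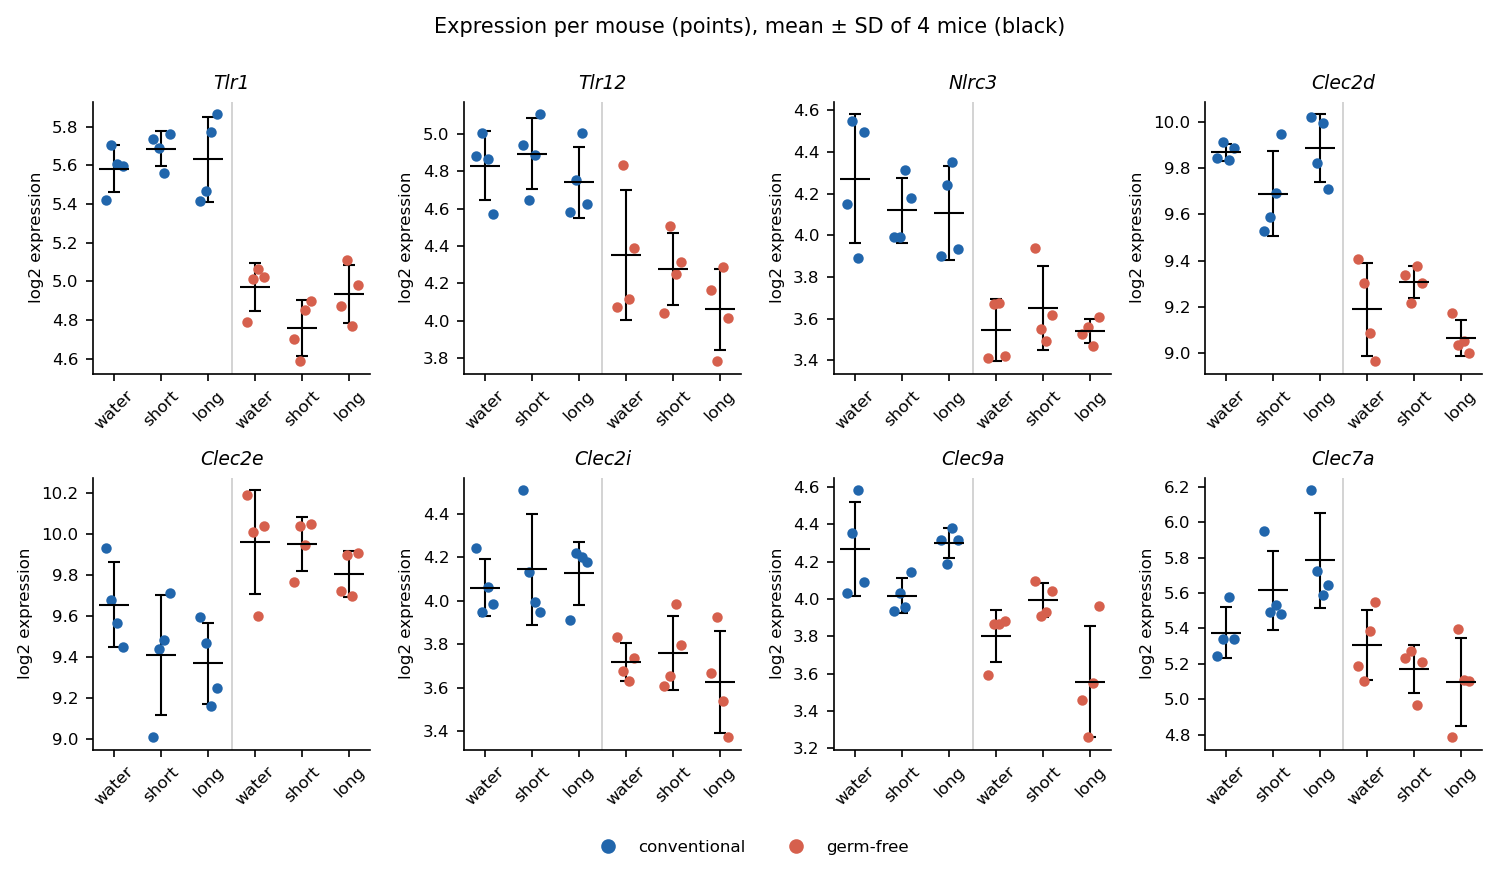
Expression of the 8 genes called in the averaged comparison (y axis, log2), 1 point per mouse, with mean ± SD of the 4 mice of each group in black. Tlr1 and Clec2d show no overlap between the 12 conventional and the 12 germ-free mice, and Clec2e lies higher in germ-free mice.

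The calls of Tlr1, Tlr12, Nlrc3 and Clec2d held with each mouse left out in turn, and their differences kept the same side of the thresholds in each other setting tried. That of Clec2e ended with cyclic loess normalization, at a difference of 0.37. Those of the others lay near the fold of 1.3 (a log2 difference of 0.38). The call of Clec9a ended without conventional water mouse 3 (-0.38) or germ-free long mouse 2 (-0.38). That of Clec2i ended without conventional short mouse 1 (-0.37) or without both mice 3 and 4 of the germ-free long-chain group (-0.35). That of Clec7a ended without 1 of 6 mice (-0.38 to -0.36), which were conventional long 1, conventional water 3, conventional short 1, germ-free short 3, germ-free long 1 and germ-free water 2. Their adjusted p stayed under 0.05 in each case.

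Among lists of genes of cell types, some differed with colonization more often than genes in general. The lists were chosen with earlier results of these data known, so these shares are descriptions and no test. At an adjusted p under 0.05, 34.0% of all genes passed, 15.4% as lower and 18.6% as higher in germ-free mice. Of 12 macrophage and dendritic cell genes, 9 were lower in germ-free mice at an adjusted p under 0.05 and none was higher (median -0.26), and their mean level was 5.39 to 5.63 in germ-free and 5.68 to 5.89 in conventional mice. Csf1r (-0.67), Itgam (-0.85), Cx3cr1 (-0.46) and Xcr1 (-0.44) had the smallest p. Of 6 T cell genes, 6 were lower (median -1.25), with mean levels of 4.38 to 4.81 and 5.63 to 6.13, led by Cd3g (-2.43), Cd3e (-2.10), Cd8a (-1.83) and Cd8b1 (-0.67). Of 6 B cell genes, 2 were lower, Cd79b (-0.51) and Cd79a (-0.77), and Cr2, Fcer2a and Pax5 were not above background. All 4 Paneth cell genes were lower (10.12 to 10.63 against 10.80 to 11.20), all 4 endothelial genes were lower (6.13 to 6.74 against 6.67 to 7.07), and 2 of 3 goblet cell genes were. Of 6 enterocyte genes, 3 were higher (11.32 to 11.90 against 11.27 to 11.48), and of 6 adipocyte genes, 5 were (6.11 to 7.87 against 5.34 to 6.59). The 3 neutrophil genes were not above background (2.65 to 3.02 against 2.64 to 3.15), and 1 of them, S100a8, passed as higher. The part of any of these in the differences of the receptors was not tested.

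The genes of proteins that the receptors work with were read from lists, averaged over treatments as above. These lists too were chosen with earlier results of these data known. For these lists and those of the next paragraphs, the shares of all genes were 34.0% at an adjusted p under 0.05 (15.4% lower, 18.6% higher) and 8.2% called. Lists whose share lies near or under these say nothing particular about the partners. Of 10 genes listed as co-receptors and chaperones of Toll-like receptors, 7 were lower and 2 higher in germ-free mice at adjusted p under 0.05. Of the 10, 5 were called. Unc93b1, which carries the endosomal receptors to endosomes, was lower by a fold of 1.65 (adjusted p = 1.0e-11). Cd180 (-0.50) was lower as well. Cd36, a scavenger receptor that also carries fatty acids and is found in adipocytes and enterocytes, was higher by a fold of 2.33 (adjusted p = 1.1e-06). Lrrc32 (-0.67) was lower and counts among the 7 and the 5, but its protein is not an established co-receptor or chaperone of these receptors. Of 16 adaptors and kinases, none was called, while 4 were lower (Ikbkb, Irak3, Tbk1 and Myd88, -0.27 to -0.13) and 1 higher at an adjusted p under 0.05. An unadjusted p under 0.05 was reached by 6 of the 16, against 7890 of all 18820 genes. Myd88 differed by a fold of 1.1 (adjusted p = 0.020).

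Of 15 transcription factors and brakes of NF-κB and IRF signalling, 7 were lower and none was higher at an adjusted p under 0.05. They included Irf7 (-0.75), the NF-κB inhibitor Nfkbia (-0.44), the deubiquitinase Cyld (-0.27) and Tnip1 (-0.20). Of 8 genes of the NOD1 and NOD2 pathway, 2 were lower, the peptide transporter Slc15a3 (-0.61) and Birc3 (-0.37), and 3 were higher, Xiap (0.18) and Slc15a4 (0.20) among them. Of 15 inflammasome partners, 4 were lower and 1 was higher, and together they were a share near the 34.0% of all genes. Casp4, the caspase that senses cytosolic lipopolysaccharide, was lower by a fold of 2.29 (-1.20, adjusted p = 2.6e-13), Gsdmd, the pore-forming protein that inflammatory caspases cut, by 1.40 and Casp1 by 1.25, and Dhx15 was higher by 1.16.

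Of 11 genes of C-type lectin receptor signalling, 4 were lower and 1 higher. Card9, the adaptor downstream of dectin-1, was lower by a fold of 2.14 (-1.10, adjusted p = 2.0e-11), Fcer1g, the signalling chain of dectin-2, by 1.71 (-0.77), Syk by 1.17 and Plcg2 by 1.11. Of 4 NKR-P1 genes, whose proteins bind CLEC2 proteins, Klrb1b (-0.57) and Klrb1f (-0.37) were lower, and Klrb1 (0.27) and Klrb1c (0.25), both not above background, were higher.

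The same comparison was then made within each treatment, where groups of 4 allow no two-sided exact p under 0.029. In the water groups 8 genes were called (12.1%, against 8.74% of all genes). The short-chain groups had 9 (13.6%, against 8.76%) and the long-chain groups 16 (24.2%, against 9.69%). At an adjusted p under 0.05 they were 8, 11 and 18, against 13.5%, 15.0% and 15.9% of all genes, or 12.1%, 16.7% and 27.3% of the 66. After long-chain fructan 14 of the 16 were lower in germ-free mice. Without mice 3 and 4 of that group 10 of the 16 calls were kept and 6 ended, and Clec4a1 (-0.60), Nlrc5 (-0.40) and Nlrp9b (-0.47) were called in addition, 13 in all. The larger number after long-chain fructan is not itself a test of a difference between treatments, which the interactions give. Tlr1, Tlr12, Nlrc3 and Clec2d were called in all 3 treatments, 7 genes in 2 and 7 in 1, while 48 were called in none. How many of all genes were called in 3, 2 or 1 of the treatments was not counted, so these counts have no share beside them. Of the 22 genes at an adjusted p under 0.05 in the averaged comparison, 21 had the same sign in the 3 treatments, the exception being Nod2. The averaged difference is the mean of these 3, so a shared sign is largely built into that choice of genes. The share among all genes was not counted.

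The genes called in all 3 treatments had differences of -0.61, -0.93 and -0.70 for Tlr1 on water, short-chain and long-chain fructan. The values were -0.68, -0.38 and -0.82 for Clec2d, -0.73, -0.47 and -0.57 for Nlrc3, and -0.48, -0.62 and -0.68 for Tlr12. For Clec2d the 4 conventional and 4 germ-free mice did not overlap in any treatment, and the same held for Tlr1 and Nlrc3. The share of all genes separated in this way within the treatments was not counted. Of the 33 calls in the 3 treatments, 17 held with each mouse left out.

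**Figure D4:**
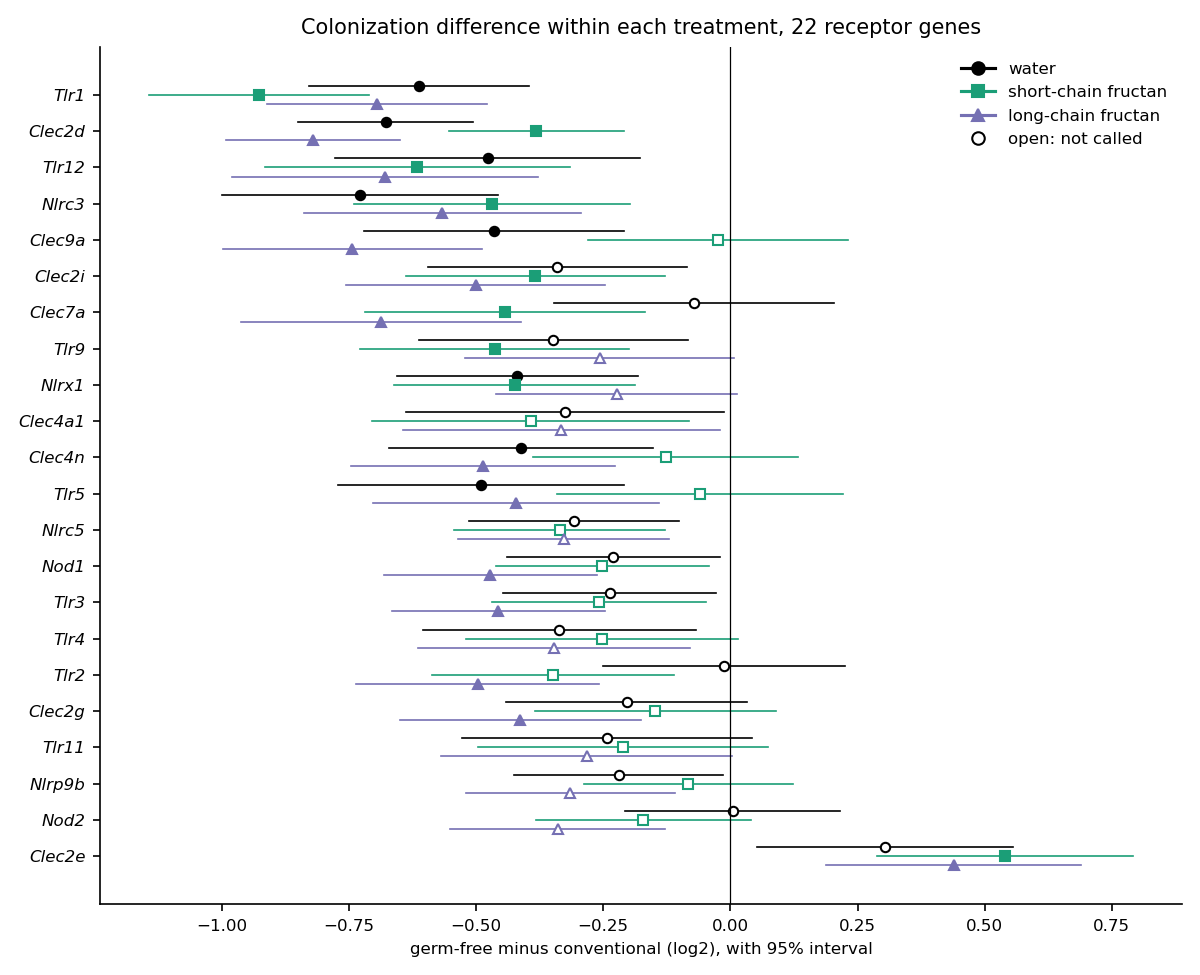
Difference between germ-free and conventional mice (x axis, log2, bar = 95% interval of the limma fit) on water, short-chain and long-chain fructan for the 22 genes at an adjusted p under 0.05 in the averaged comparison, with filled symbols where the gene was called. Tlr1, Clec2d, Tlr12 and Nlrc3 have 3 filled symbols left of 0, and Clec9a and Tlr5 lie near 0 after short-chain fructan, Clec7a and Tlr2 on water.

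Several genes stood near 0 in 1 treatment. Clec9a differed by -0.46 in the water groups, by -0.74 with long-chain and by -0.02 with short-chain fructan (limma adjusted p = 0.016, 0.00022 and 0.94). Its values after short-chain fructan were 3.94, 4.03, 3.96 and 4.15 in conventional and 4.10, 3.91, 3.93 and 4.04 in germ-free mice. For Tlr5 the water difference was -0.49, the short-chain difference -0.06 and the long-chain difference -0.42. Clec7a differed by -0.07, -0.44 and -0.69 and Tlr2 by -0.01, -0.35 and -0.50 in the same order, so that for both the germ-free and conventional mice were close on water and apart after long-chain fructan.

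Of the other genes called in 1 or 2 treatments, Clec2e was called after both fructans (0.54 and 0.44), as was Clec2i (-0.38 and -0.50). Clec4n was called on water and after long-chain fructan (-0.41 and -0.49), and Nlrx1 on water and after short-chain fructan (-0.42 and -0.42), but with its 2 probe sets averaged neither was called, at 0.025 and -0.27. The water call also ended with cyclic loess (-0.38). Tlr9 was called after short-chain fructan (-0.46). Nod1 (-0.47), Tlr3 (-0.46), Tlr2 and Clec2g (-0.41) were called after long-chain fructan. So were Clec14a, a protein of endothelium (-0.56, adjusted p = 0.050), and Clec4g, a lectin known from the sinusoidal endothelium of the liver, which was higher in germ-free mice (0.44) but not above background. With the 2 probe sets of Clec4g averaged, it was not called (0.34).

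The 16 calls that ended when a mouse was left out were these. On water, Clec4n ended without conventional 1 or 4 or germ-free 3 or 4 (-0.39 to -0.33), Clec9a without conventional 3 (-0.36), Nlrx1 without germ-free 1 (-0.30), Tlr5 without germ-free 4 (-0.40), and Tlr12 without conventional 1, 2 or 3 or germ-free 1 or 3 (-0.47 to -0.38). After short-chain fructan, Clec2d ended without conventional 4 or germ-free 2 (-0.30 and -0.35), Clec2i without conventional 1 or 2 or germ-free 1, 2 or 4 (-0.40 to -0.26), Clec7a without conventional 1 or germ-free 3 (-0.33 and -0.38), Nlrc3 without conventional 3 or germ-free 3 (-0.40 and -0.42), Nlrx1 without conventional 4 or germ-free 2 (-0.35 and -0.38) and Tlr9 without germ-free 2 (-0.38). After long-chain fructan, Clec14a ended without conventional 1 or 2 or germ-free 1, 3 or 4 (-0.52 to -0.46), Clec2e without conventional 3 (0.37), Clec2g without conventional 1 or germ-free 3 or 4 (-0.37 to -0.35), Clec4g without conventional 3 or germ-free 2 or 4 (0.30 to 0.38) and Tlr5 without conventional 3 or germ-free 3 or 4 (-0.43 to -0.30). Without both mice 3 and 4 of the germ-free long-chain group, the long-chain calls of Clec14a (-0.35), Clec2e (0.44), Clec2g (-0.29), Clec2i (-0.33), Tlr3 (-0.35) and Tlr5 (-0.28) ended.

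The second question was whether the fructans changed the receptors. Very few calls were made, and no gene, receptor or other, had an adjusted p under 0.05 in any of the comparisons of fructans. The comparisons of both fructans with water in the same kind of mice share the water mice. In conventional mice no receptor was called after short-chain fructan (0.409% of all genes), with 4 at an unadjusted p under 0.05, and 2 were called after long-chain fructan, Clec3b and Clec7a (3.03%, against 0.313% of all genes), with 8 at an unadjusted p under 0.05. In germ-free mice none was called after short-chain fructan (0.579% of all genes), with 5 at an unadjusted p under 0.05, and 1 after long-chain fructan, Nlrp4c (1.52%, against 0.855%), with 5. Of all 18820 genes, 982 and 1067 had an unadjusted p under 0.05 in conventional mice after short-chain and long-chain fructan. In germ-free mice these counts of all genes were 1075 and 1644. The smallest adjusted p of a receptor in these 4 comparisons was 0.36.

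Clec3b, tetranectin, a plasminogen-binding protein of extracellular matrix and plasma, had values of 4.70, 4.91, 5.02 and 4.73 in conventional mice on water and 5.47, 5.33, 5.24 and 5.31 after long-chain fructan. The 4 long-chain mice lay above the 4 water mice (fold 1.41, 0.50 ± 0.15, unadjusted limma p = 0.0025, adjusted p = 0.79, exact permutation p = 0.029). After short-chain fructan the values were 5.07, 5.35, 5.11 and 5.46, again all above the water mice, with a difference of 0.41 that was not called (unadjusted limma p = 0.011, exact permutation p = 0.029). In germ-free mice the difference after long-chain fructan was 0.13 (exact permutation p = 0.54), and the test of the difference between both changes gave -0.37 (limma adjusted p = 1.00).

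Clec7a had values of 5.24, 5.34, 5.58 and 5.34 in conventional mice on water, 5.95, 5.49, 5.53 and 5.48 after short-chain fructan and 6.18, 5.73, 5.59 and 5.64 after long-chain fructan. The long-chain mice lay above the water mice, with the lowest of the one just over the highest of the other (fold 1.33, 0.41 ± 0.14, adjusted p = 0.86 by limma). The change after short-chain fructan was 0.24 and was not called. Germ-free mice had 5.19, 5.11, 5.38 and 5.55 with water. With short-chain fructan they had 5.23, 5.28, 4.97 and 5.21. With long-chain fructan they had 4.79, 5.40, 5.11 and 5.10, a change of -0.21 from water, and neither fructan gave a call.

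Tlr2 was not called after either fructan, though its values went the same way: 4.99, 4.87, 4.70 and 4.58 in conventional mice on water and 5.08, 5.06, 5.14 and 5.20 after long-chain fructan (fold 1.26, unadjusted limma p = 0.010, adjusted p = 0.86, exact permutation p = 0.029). In germ-free mice they were 4.90, 4.62, 4.60 and 4.97 on water and 4.62, 4.53, 4.90 and 4.44 after long-chain fructan, with a change of -0.15.

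The interaction tests whether the change after a fructan differed between germ-free and conventional mice. For short-chain fructan no receptor was called (0.707% of all genes), with 6 at an unadjusted p under 0.05 (1025 of all 18820 genes). For long-chain fructan 2 were (3.03%, against 0.531% of all genes), Clec7a (-0.62 ± 0.20, unadjusted p = 0.0046) and Tlr2 (-0.48 ± 0.17, unadjusted p = 0.0090), each with an adjusted p of 1.00 in limma. For both the change was positive in conventional and negative in germ-free mice, and neither change in germ-free mice was called. The interaction of Clec9a with short-chain fructan (0.44 ± 0.18) and that of Tlr5 (0.43 ± 0.20) were not called (limma adjusted p = 0.90 for both).

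**Figure D5:**
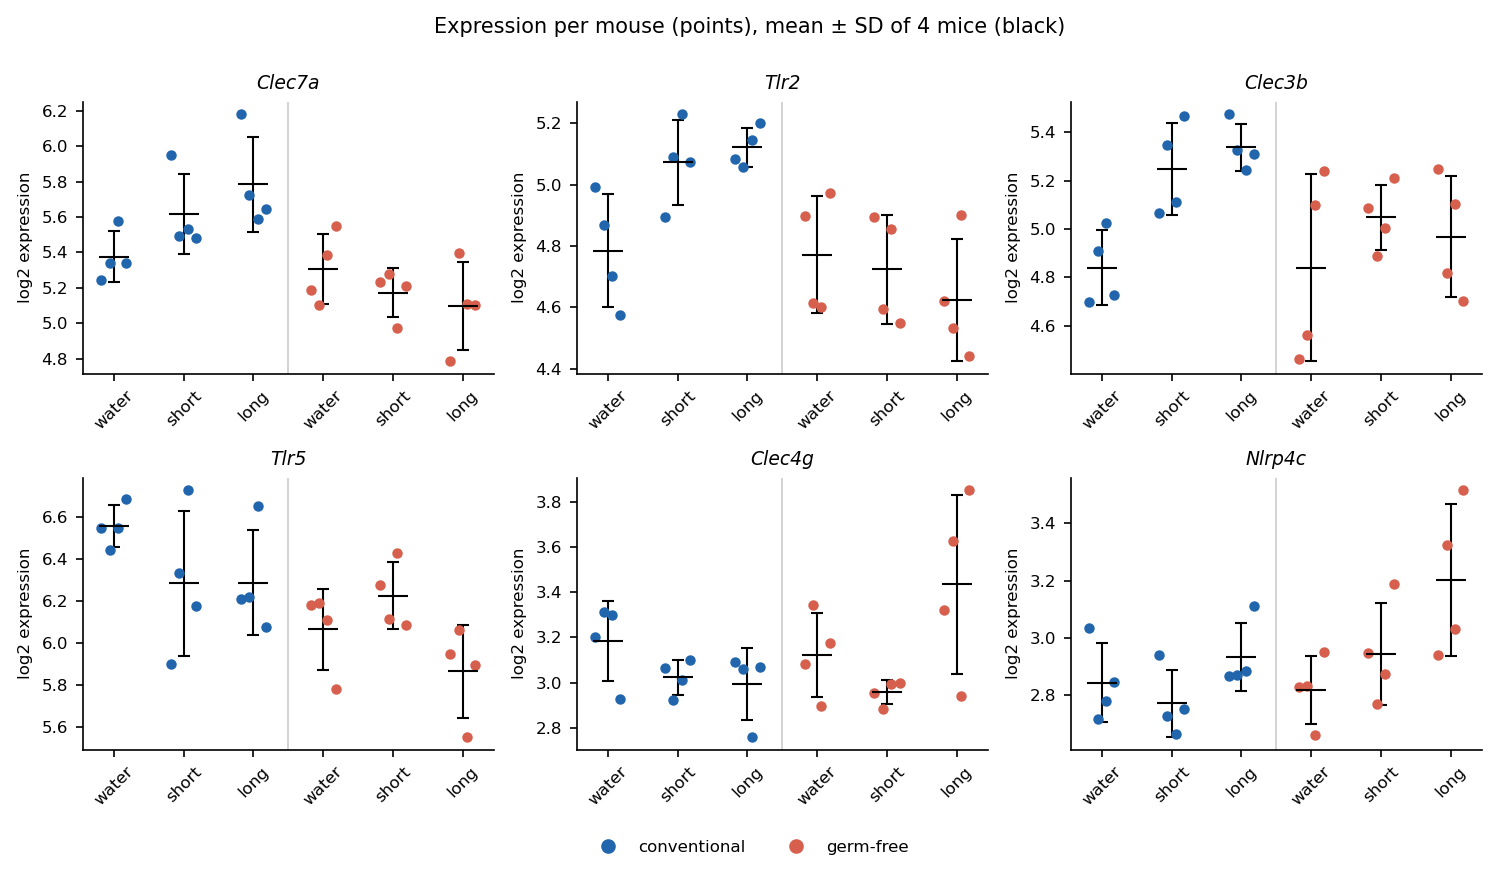
Expression of 6 receptors by group (y axis, log2), 1 point per mouse, with mean ± SD of the 4 mice in black: the genes called against water (Clec7a, Clec3b, Nlrp4c) or in an interaction (Clec7a, Tlr2), Clec4g, called between the fructans, and Tlr5. In conventional mice Clec7a, Tlr2 and Clec3b were higher in all 4 mice on long-chain fructan than in the 4 on water, and Clec4g and Nlrp4c lie mostly below background.

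None of these 7 calls, counted over all comparisons of fructans and interactions, held with each mouse left out. The change of Clec3b lost its call without conventional water mouse 1 or conventional long mouse 1 (0.45 in both). That of Clec7a lost it without conventional water mouse 1, 2 or 4 or conventional long mouse 1 or 2 (0.28 to 0.43). The interaction of Clec7a lost it without conventional water mouse 1, conventional long mouse 1, germ-free long mouse 1 or germ-free water mouse 4 (-0.57 to -0.48), and without both mice 3 and 4 of the germ-free long-chain group (-0.62). The interaction of Tlr2 lost it without 1 of 12 mice (-0.50 to -0.42), namely conventional water 3 or 4, conventional long 1, 3 or 4, conventional short 2 or 4, germ-free water 1 or 4 and germ-free long 1, 2 or 4.

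Between the fructans, no receptor was called in conventional mice (0.213% of all genes), with 4 at an unadjusted p under 0.05 (684 of all 18820 genes). In germ-free mice, where chain length and the way of sterilising cannot be told apart, Clec4g and Clec9a were called (3.03%, against 1.41%). There 11 receptors had an unadjusted p under 0.05, against 2392 of all 18820 genes. Clec4g was higher after long-chain fructan, with values of 3.32, 3.63, 2.94 and 3.85 against 2.95, 2.88, 2.99 and 3.0 (0.48, adjusted p = 0.20 by limma), and 3 of the 4 long-chain mice lay above the short-chain mice. The call ended without germ-free long mouse 2 or 4 (0.41 and 0.34). It also ended with the 2 probe sets of Clec4g averaged (0.33) and with only the arrays compared (0.48). Clec9a was lower after long-chain fructan, with 3.46, 3.26, 3.55 and 3.96 against 4.10, 3.91, 3.93 and 4.04 (-0.44, adjusted p = 0.21 by limma). That call ended without germ-free long mouse 2 (-0.34), and the difference was -0.64 without mice 3 and 4.

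Nlrp4c, a gene of oocytes with a close set of relatives, had values of 2.83, 2.83, 2.66 and 2.95 in germ-free mice on water and 2.94, 3.32, 3.03 and 3.52 after long-chain fructan, which overlap (0.38, adjusted p = 0.36 by limma). All of these lie below background, and the call ended without germ-free long mouse 2 or 4 or germ-free water mouse 3 (0.28 to 0.34) and without mice 3 and 4 of the long-chain group (0.31).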

How the data were processed

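RNA of terminal ileum from 24 mice was hybridised to Affymetrix Mouse Gene 1.1 ST arrays, 1 per mouse. The deposited values were log2 expression per probe set, which the authors had background-corrected, quantile-normalised and summarised by robust multi-array averaging. Their methods name a remapped probe set definition, whereas the rows carry the maker's probe set identifiers. Of 35556 probe sets, 21218 had 1 symbol, 1881 several and 12457 none in the platform annotation. No gene was named from a set with several symbols. Where a gene had several sets, as 1386 did, that of highest mean stood for it, giving 18820 genes. All 66 receptor genes matched RefSeq symbols.

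The 6 group means were fitted over all 24 arrays in limma 3.58.1 (R 4.3.3) with an intensity trend in the variance prior, which was tested on simulated data, and p-values were adjusted over all 18820 genes (Benjamini-Hochberg). Calls used an unadjusted p under 0.01 and a fold over 1.3. Exact permutation tests were two-sided, over 35 divisions of 4 against 4 mice or, for the averaged comparison, over 343000 permutations within treatments. No column was without a sample and no 2 arrays were identical. Pearson's r within groups was 0.979 to 0.990 over 36 pairs of arrays.

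Members and lists were chosen with earlier results of these data known. Named receptors were all that were called, all at an adjusted p under 0.05 in the averaged comparison, all Toll-like receptors, Nod1 and Nod2, and of each other list up to 4 genes with the smallest p. Further receptors named as not passing, the co-varying B cell markers and the promoters were chosen after values were seen. Alternatives were another variance prior, the intensity-based test of the methods, cyclic loess, a filter on dim genes, averaged probe sets, array weights, a replicate block, fits of the compared groups alone, adjusted p as the rule, and each mouse left out. Leaving out both germ-free long-chain mice 3 and 4 was added after seeing the data.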

Additional observations from a re-analysis of the deposited data

Results flagged for a closer look

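Of the 180 groups of 4 mice checked for the 30 named receptors, 10 (5.56%) held a mouse far from the other 3, where chance gives about 1 in 20. Germ-free mice with such values were long-chain mouse 2 for Clec14a (4.216, the others 3.425 to 3.5) and for Nlrx1 (5.538, the others 5.823 to 5.849), water mouse 1 for Clec9a (3.593, the others 3.866 to 3.881), water mouse 3 for Tlr11 (2.797, the others 3.622 to 3.783) and short-chain mouse 1 for Tlr6 (2.878, the others 3.135 to 3.152). Conventional mice were long-chain mouse 1 for Clec2i (3.912, the others 4.178 to 4.219), long-chain mouse 3 for Clec4g (2.757, the others 3.058 to 3.091), short-chain mouse 1 for Clec7a (5.951, the others 5.483 to 5.531), long-chain mouse 4 for Nlrp4c (3.111, the others 2.868 to 2.883) and water mouse 3 for Tlr4 (4.991, the others 4.637 to 4.697).

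The change after long-chain fructan differed between germ-free and conventional mice for Clec7a (-0.6155) and Tlr2 (-0.4846) by the interaction term at the unadjusted threshold, and neither passed after adjustment.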

How the results depend on the processing

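Of the 22 receptors at an adjusted p under 0.05 in the averaged comparison, 19 kept their side in every alternative run, 32 for 20 of the receptors and 31 for Clec2g and Tlr11, which the filter on dim genes removes. The exceptions were Nod2 (-0.15 with cyclic loess, -0.17 to -0.15 without any 1 of 13 mice, -0.14 without germ-free long-chain mice 3 and 4), Nlrx1 (-0.10 with probe sets averaged) and Tlr11 (-0.24 without germ-free long-chain mice 3 and 4). Of the 40 calls in the other comparisons, 15 kept theirs in every alternative. With adjusted p under 0.05 as the rule, the 8 averaged calls became 22, and the 3 calls of a fructan against water, the 2 between fructans and the 2 interactions became 0. The calls between fructans were 1 with only the arrays compared, with dim genes left out or with probe sets averaged, and the interactions 1 with only the arrays compared. Leaving out 1 mouse gave 6 to 9 averaged calls, 6 to 10 on water, 6 to 9 after short-chain and 13 to 17 after long-chain fructan, 2 to 6 of a fructan against water, 1 to 3 between fructans and 0 to 4 interactions. The fructan calls against water were 6 without germ-free water mouse 2 and 5 without conventional long-chain mouse 3, conventional short-chain mouse 3, germ-free water mouse 4 or germ-free long-chain mouse 4. The calls between fructans were 1 without germ-free long-chain mouse 2 or 4. The interactions were 0 without conventional long-chain mouse 1, germ-free long-chain mouse 1 or germ-free water mouse 4, and 4 without germ-free water mouse 2. Replicate numbers did not pair the mice (r of same-numbered pairs -0.137 to 0.182, of others -0.185 to 0.175), and the replicate block left 8 averaged calls, 8, 9 and 16 within treatments, 2 between fructans, 2 against water and 1 interaction. Signs reversed for Nlrx1 on water with probe sets averaged (0.025), for Tlr6 with cyclic loess (-0.00877), array weights (-0.00919) or 1 mouse left out (range -0.0183 to 0.0487), and for Tlr7 with cyclic loess (-0.00383), array weights (-0.0477), without germ-free long-chain mice 3 and 4 (-0.00820) or 1 mouse (range -0.0453 to 0.0658). The cause of these shifts was not tested. Receptors not above background limit what can be seen.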
